A study of Mus musculus with 5 samples.

Results

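The data describe CpG methylation at 35 germline genes in leukemic blasts of mice. The genes were taken by symbol from the GENCODE annotation (release M21) of the mouse assembly GRCm38 as 35 of 21755 protein-coding genes on the autosomes and the X chromosome. The rule that picks them uses gene symbols and no threshold on a measured value, although the list was drawn up with earlier results of these data known. They encode meiotic chromosome proteins, proteins of the piRNA pathway and other proteins of germ cells. Whole-genome bisulfite sequencing (WGBS) was done on sorted donor-derived bone marrow cells (CD45.2+ CD3- B220- Ter119-) of moribund, lethally irradiated congenic C57BL/6 J.SJL recipients with *Cebpa*-mutant acute myeloid leukemia (AML). All 5 libraries were *Cebpa*-/p30, with a deleted allele and an allele that encodes only the short isoform p30 of the transcription factor CEBPA. *Cebpa*-/p30 *Tet2+/+* blasts (2 libraries, numbered 23 and 24) kept *Tet2*, and in *Cebpa*-/p30 *Tet2-/-* blasts (3 libraries, numbered 5, 7 and 8) the floxed alleles of *Tet2* had been deleted. Both groups carried *Mx1*-Cre and received Poly(I:C), which switches this recombinase on in blood cells and other interferon-responsive cells. It deleted the floxed *Cebpa* allele in both groups and the floxed *Tet2* alleles in *Tet2-/-*. Each library came from a different mouse, but the labels do not say whether mice of a group received cells of the same donor, so that p-values measure the spread between these libraries.

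In somatic cells, many germline genes are kept silent by DNA methylation of promoters that are often rich in CpG, a class of promoter that is otherwise mostly unmethylated. The methylation is laid down in the early embryo by DNMT3A and DNMT3B, at promoters that E2F6 and MGA with MAX, subunits of the repressor complex PRC1.6, recognise at E2F and E-box motifs, and it is erased in primordial germ cells. TET2 is a dioxygenase that oxidises 5-methylcytosine to 5-hydroxymethylcytosine and beyond. Bisulfite reads both bases as methylated, so that a level below is their sum.

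Calls per library ranged from 63111735 to 110752967 on the autosomes and the X chromosome, or from 2.96 to 5.19 per CpG dyad (both strands of a CpG added). Single CpGs held few calls. Their calls were therefore added up over the promoter (within 1 kb of the start site, the 5′ end of the gene record), a narrower promoter (500 bp on each side) and the gene body. The methylation level of a region is its methylated calls over all its calls. All 35 genes had at least 20 calls in every library for each of these regions, with 68 to 756 calls per library in the promoter. The level over all CpGs was 67.3% and 62.3% in *Tet2+/+* and 70.9%, 74.8% and 68.4% in *Tet2-/-*, so that library 24 was the lowest overall. Regions were compared by a quasi-likelihood test in edgeR, with methylated and unmethylated calls as counts, fitted to all regions of a kind and adjusted by Benjamini-Hochberg over all of them. With 2 against 3 libraries, a two-sided exact permutation test cannot go below p = 0.1. Promoters of blood markers, listed to check the label, had a median *Tet2+/+* level of 7.66% for 9 myeloid genes. The *Tet2+/+* means of these 9 ran from 0.790% to 46.9%. The lowest was *Prtn3*, a granule protease, at 1.09% and 0.487%. The median was 24.7% for 3 pan blood, 34.6% for 5 B cell, 72.6% for 5 T cell, 19.8% for 4 erythroid and 30.1% for 5 stroma genes. In *Tet2-/-* the medians were 16.9%, 25.6%, 42.7%, 75.8%, 27.7% and 41.4% in the same order, and the part of cell makeup in the results was not tested.

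Most of the 35 promoters were methylated in blasts of both genotypes. The members were listed as germline genes kept methylated in somatic cells, so that a high level was partly built into the choice. The median level over the 35 promoters was 82.7% and 78.2% for the *Tet2+/+* and 87.2%, 91.6% and 83.5% for the *Tet2-/-* libraries, against a median of 12.0% to 18.8% per library over all 19455 promoters tested. A mean level of at least 80% over the 5 libraries was found at 23 of the 35 promoters and at 1956 (10.1%) of all. Of the others, 10 lay between 20% and 80% and 2, *Ddx25* and *Spo11*, below 20%.

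CpG-rich members were methylated too. By the ratio of observed to expected CpGs within 500 bp of the start site, 19 members had a high CpG content (over 0.6), 12 an intermediate and 4 a low one (under 0.35). Among high-CpG promoters the median *Tet2+/+* level was 80.9% for the 19 members and 4.87% for all 10025 tested. Of the 19, 7 had a *Tet2+/+* level of at least 90%, a class that held 33 of the 10025.

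**Figure D1:**
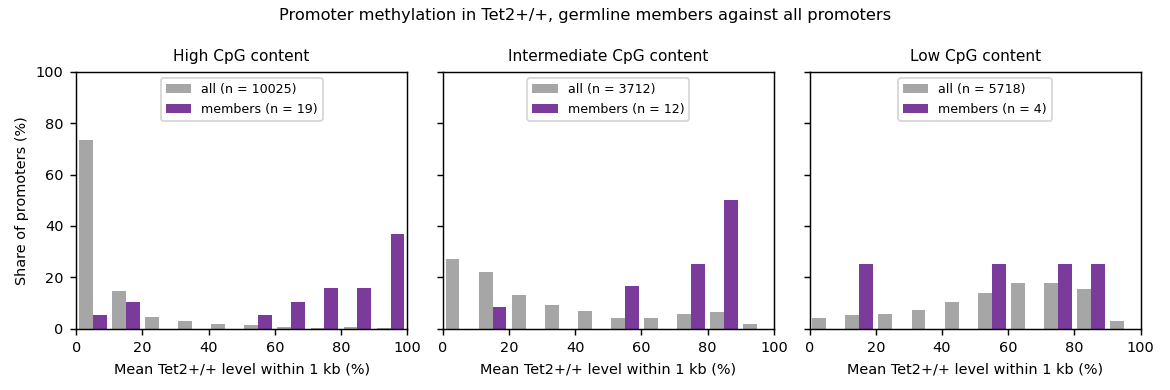
Share of promoters (y axis, %) by mean *Tet2+/+* methylation level within 1 kb of the start site (x axis, % in classes of 10 points), for all promoters tested (grey) and the germline members (purple), by CpG content. Of high-CpG promoters, 73.4% of all were in the lowest class, and 36.8% of the members were in the highest.

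Around the start site, high-CpG promoters as a whole dipped to between 3.96% and 5.35% in the 250 bp on either side, in every library. Promoters of any CpG content were at 9.73% to 12.4% there. The summed calls of the 35 members, 12 of them of intermediate and 4 of low CpG content, showed no such dip. They were at 69.9% and 71.5% in *Tet2+/+* and 74.6%, 72.4% and 74.8% in *Tet2-/-* in the 250 bp before the start site. In the 250 bp after it they were at 67.9% and 64.3% in *Tet2+/+* and 74.6%, 75.1% and 72.4% in *Tet2-/-*. Over all 35 members, the level was 68.0% in *Tet2+/+* and 74.0% in *Tet2-/-* within 250 bp of the start site, and 60.7% and 70.5% at 500 to 1000 bp away. For the 23 members with a mean level of at least 80% within 500 bp, a choice that itself favours a high level near the start site, the level was higher within 250 bp of the start site (89.0% in *Tet2+/+*, 91.0% in *Tet2-/-*) than 500 to 1000 bp away (74.5% and 76.6%).

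**Figure D2:**
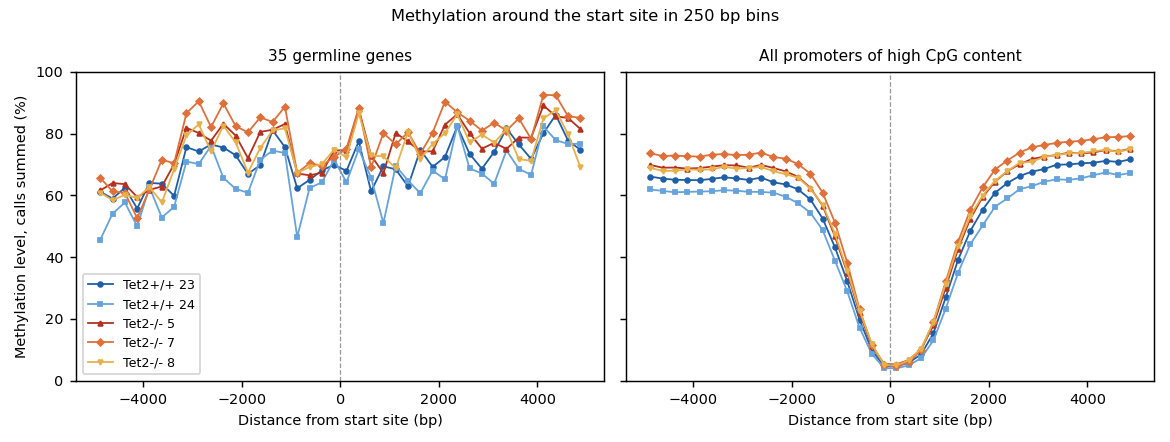
Methylation level (y axis, %, calls summed over genes) against distance from the start site (x axis, bp, in the direction of transcription) in 250 bp bins, for the 35 germline genes and for all high-CpG promoters, with a line per library. The members, some of them of lower CpG content, were at 64.3% to 75.1% in the bins beside the start site. There, high-CpG promoters as a whole dipped to between 3.96% and 5.35%.

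Sequences of 6 promoters are shown from 250 bases before to 50 after the start site, 5′ to 3′ on the strand of the gene, with each CpG in capitals, read from the GRCm38 assembly. *Dazl*, *Tex101*, *Mael* and *Slc25a31* were fixed by name. *Dmc1* was added for the largest difference between genotypes and *Ddx25* for the lowest level. *Dazl*, *Mael* and *Slc25a31* were over 90% methylated within 500 bp on average, and *Tex101* was at intermediate levels. The sequences show that the promoters of *Dazl*, *Mael* and *Slc25a31* held 26, 24 and 21 CpGs in 300 bases, more than the 18 of *Dmc1*. *Tex101* held 7 and the unmethylated *Ddx25* 34.
Dazl, chr17:50293587-50293886, minus strand: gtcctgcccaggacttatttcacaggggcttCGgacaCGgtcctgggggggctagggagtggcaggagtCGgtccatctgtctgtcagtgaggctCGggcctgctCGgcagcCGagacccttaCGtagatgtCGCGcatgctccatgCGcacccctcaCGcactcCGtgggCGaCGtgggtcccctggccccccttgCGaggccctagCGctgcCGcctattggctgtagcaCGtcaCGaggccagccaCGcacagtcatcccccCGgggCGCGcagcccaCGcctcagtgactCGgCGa
Mael, chr1:166238698-166238997, minus strand: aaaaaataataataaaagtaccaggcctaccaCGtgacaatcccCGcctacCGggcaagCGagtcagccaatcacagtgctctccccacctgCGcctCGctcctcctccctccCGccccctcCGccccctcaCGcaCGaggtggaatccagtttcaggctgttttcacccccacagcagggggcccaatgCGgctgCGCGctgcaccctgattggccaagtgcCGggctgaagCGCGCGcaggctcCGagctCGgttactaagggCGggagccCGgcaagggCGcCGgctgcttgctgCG
Slc25a31, chr3:40708605-40708904, plus strand: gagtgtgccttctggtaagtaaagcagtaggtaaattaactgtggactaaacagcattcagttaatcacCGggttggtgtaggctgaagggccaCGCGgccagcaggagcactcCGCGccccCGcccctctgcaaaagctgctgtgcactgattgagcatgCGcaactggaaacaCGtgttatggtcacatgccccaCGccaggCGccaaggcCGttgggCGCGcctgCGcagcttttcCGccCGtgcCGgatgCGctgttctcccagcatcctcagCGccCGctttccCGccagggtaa
Tex101, chr7:24676626-24676925, minus strand: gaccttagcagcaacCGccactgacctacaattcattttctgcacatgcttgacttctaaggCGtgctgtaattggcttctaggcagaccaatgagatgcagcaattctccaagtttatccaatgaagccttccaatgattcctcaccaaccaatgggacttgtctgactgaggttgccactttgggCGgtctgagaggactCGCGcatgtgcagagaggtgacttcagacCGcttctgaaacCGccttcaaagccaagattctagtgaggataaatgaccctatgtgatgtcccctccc
Dmc1, chr15:79605060-79605359, minus strand: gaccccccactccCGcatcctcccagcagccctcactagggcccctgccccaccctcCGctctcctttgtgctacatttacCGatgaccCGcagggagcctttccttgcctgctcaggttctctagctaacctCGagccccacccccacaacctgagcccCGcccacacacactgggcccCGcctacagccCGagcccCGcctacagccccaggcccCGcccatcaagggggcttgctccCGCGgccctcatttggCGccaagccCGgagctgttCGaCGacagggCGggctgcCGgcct
Ddx25, chr9:35558479-35558778, minus strand: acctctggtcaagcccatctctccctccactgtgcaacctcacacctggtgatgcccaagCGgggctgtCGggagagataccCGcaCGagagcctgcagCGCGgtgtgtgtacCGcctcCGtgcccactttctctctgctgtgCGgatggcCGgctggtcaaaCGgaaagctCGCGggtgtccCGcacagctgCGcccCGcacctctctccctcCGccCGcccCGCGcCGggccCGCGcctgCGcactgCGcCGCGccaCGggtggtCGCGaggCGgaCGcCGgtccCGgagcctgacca

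Within these windows, the levels were 96.2% and 91.5% in *Tet2+/+* and 100%, 95.1% and 97.4% in *Tet2-/-* for *Dazl*, with 38 to 81 calls per library. *Dmc1* was at 11.1% and 0% in *Tet2+/+* and 46.2%, 18.3% and 65.96% in *Tet2-/-*, with 20 to 126 calls. Its 0% in library 24 rests on 20 calls. A pair of motifs that PRC1.6 subunits recognise was counted in the same windows of all genes. The letters TCCCGC (E2F, either strand) were found in 12 of the 35 member windows (34.3%) and 24.2% of all 21755. The palindrome CACGTG (E-box) was found in 12 members (34.3%) and 7.81% of all. At least 1 of the motifs was found in 19 members (54.3%) and 29.5% of all. Among high-CpG promoters, 16 of 19 members held at least 1 of them, against 47.8% of all. In the printed windows, *Mael* held both motifs and *Slc25a31* held both, *Dmc1* and *Ddx25* held TCCCGC only, and *Dazl* and *Tex101* held neither. A match is a description of the letters and shows no binding.

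Against this methylated background, the difference between genotypes was small at most germline promoters and large at a few. Within 1 kb, 2 of the 35 promoters, *Dmc1* and *Tdrd9*, passed the test and both were higher in *Tet2-/-*, where 1.06% of all promoters were called higher. In 16 of the 35 (45.7%) all *Tet2-/-* libraries were above both *Tet2+/+* libraries, where this held for 32.8% of all promoters, and in 1 (*Dazl*) all were below. The median difference was 3.82 points over the members and 2.22 points over all promoters. Leaving out *Tet2+/+* library 23 moved that of the members to 6.63 points, and leaving out library 24 to 2.61 points. Relative to each library's median promoter the median difference of the members was -0.502 points. That reference was 14.3% and 12.0% in *Tet2+/+* and 16.4%, 17.2% and 18.8% in *Tet2-/-*, far below most members, and the value depends on it. Without that subtraction, the differences of the members ranged from -7.87 to 47.1 points. Of the 35 promoters, 28 had a difference above 0 and 13 an unadjusted edgeR p under 0.05. Of all 19455 promoters, 14924 and 3521 did. Within 500 bp, the same 2 promoters passed, where 0.569% of all were called higher, and 14 of the 35 had groups that did not overlap and *Tet2-/-* higher, against 27.2% of all. No member promoter passed when either *Tet2+/+* library was left out, with 7 (without library 23) and 4 (without library 24) at an unadjusted edgeR p under 0.05 within 1 kb. Of all promoters, 21 and 0 then passed. The lone *Tet2+/+* library was assumed to vary like the others, and no other tool was run with a library left out.

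Differences were smaller in promoters near full methylation. The classes of level below use the mean over all 5 libraries, *Tet2-/-* included, so that the difference itself partly sets the class. *Dmc1*, *Rec8* and *Stag3*, with *Tet2+/+* means of 16.7%, 19.6% and 12.0%, were in the class of 20% to 80% through their *Tet2-/-* levels. In the 23 promoters with a mean level of at least 80%, the median difference was 2.85 points, against 4.98 points for all 1956 promoters of that level. None of the 23 passed (edgeR), where 0.204% of all at that level were called higher. In 9 (39.1%) of the 23 the groups did not overlap with *Tet2-/-* higher, as for 39.4% of all promoters of that level. In the 10 promoters between 20% and 80%, the median difference was 20.9 points, against 8.30 points for all 7002 promoters of that level, and 7 did not overlap with *Tet2-/-* higher, against 39.7% of all at that level. The ratio of the unmethylated share in *Tet2-/-* to that in *Tet2+/+* had a median of 0.673 over the members and 0.972 over all promoters. Within these classes, which the *Tet2-/-* levels partly set, the order differed by class. The ratio was 0.821 over members and 0.678 over all promoters at a level of at least 80%, and 0.632 and 0.849 between 20% and 80%.

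**Figure D3:**
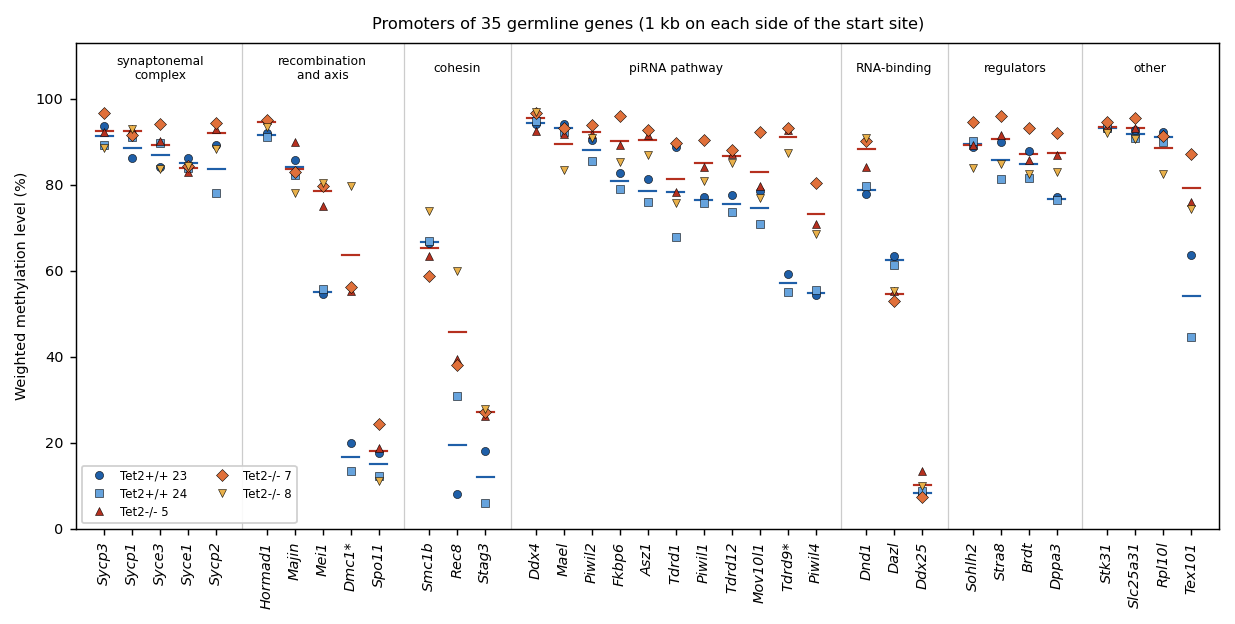
Methylation level (y axis, %) of the promoters of the 35 germline genes within 1 kb of the start site, grouped by role and ordered by *Tet2+/+* mean within a role. Points are libraries, short lines are group means (blue *Tet2+/+*, red *Tet2-/-*), and an asterisk marks an edgeR adjusted p under 0.05. *Dmc1*, *Tdrd9*, *Mei1*, *Rec8* and *Tex101* stand apart with differences of 23.3 to 47.1 points, and 23 of the 35 have a mean of at least 80%.

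The synaptonemal complex is the protein zipper that joins homologous chromosomes in meiosis. Its 5 members were methylated in all libraries, with *Tet2+/+* means of 83.7% to 91.5%. *Sycp1*, the transverse filament that spans the zipper, was at 86.2% and 91.1% for libraries 23 and 24 (*Tet2+/+*) and at 92.9%, 91.6% and 92.9% for libraries 5, 7 and 8 (*Tet2-/-*). *Sycp3*, a protein of its lateral elements, was at 93.7% and 89.2% in *Tet2+/+* and 92.2%, 96.7% and 88.5% in *Tet2-/-*. For *Sycp1* the *Tet2-/-* libraries were all above and for *Sycp3* the groups overlapped (edgeR adjusted p = 0.476 and 0.823). *Syce1*, of the central element, was at 86.3% and 83.9% in *Tet2+/+* and 83.1%, 84.4% and 84.3% in *Tet2-/-*, with overlapping groups. *Sycp2*, a partner of SYCP3, and *Syce3*, of the central element, overlapped too, and none of the 5 passed.

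Meiotic recombination starts with breaks made by SPO11 and is carried out by the strand exchange protein DMC1. The *Dmc1* promoter (chromosome 15, 79604109 to 79606109, 81 dyads) was at 19.9% and 13.5% for libraries 23 and 24 (*Tet2+/+*) and at 55.4%, 56.3% and 79.6% for libraries 5, 7 and 8 (*Tet2-/-*). All *Tet2-/-* libraries were well above both *Tet2+/+* libraries, and library 8 was the highest. Group means were 16.7% ± 4.48 (SD, n = 2) for *Tet2+/+* and 63.8% ± 13.7 (SD, n = 3) for *Tet2-/-*, a difference of 47.1 points (edgeR adjusted p = 0.0132). Within 500 bp the level was 11.9% and 1.38% in *Tet2+/+* and 48.3%, 47.7% and 77.2% in *Tet2-/-* (edgeR adjusted p = 0.0251). Without *Tet2+/+* library 23 or 24 the edgeR adjusted p within 1 kb was 0.0650 and 0.312, and the difference was 50.3 and 43.9 points. In 200 bp bins the difference was largest in a block from 800 bases before to 999 after the start site. The block holds 148 bases of exon and 852 of intron of *Dmc1*. This and the other segments below were chosen after the bins were seen. There the level was 12.1% and 4.69% in *Tet2+/+* and 52.6%, 52.4% and 78.6% in *Tet2-/-*, with 213 to 645 calls per library. Upstream of the block, from 1800 to 801 bases before the start site, the DNA was methylated in both genotypes, at 82.0% and 68.7% in *Tet2+/+* and 88.0%, 94.3% and 93.0% in *Tet2-/-*. All *Tet2-/-* libraries were above both *Tet2+/+* libraries there too.

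*Mei1*, needed for meiotic breaks, also lies on chromosome 15. Its promoter (chromosome 15, 82068996 to 82070996, 69 dyads) was at 54.5% and 55.8% for libraries 23 and 24 (*Tet2+/+*) and at 75.2%, 79.8% and 80.5% for libraries 5, 7 and 8 (*Tet2-/-*). The groups were apart by 23.3 points, and the test was just missed (edgeR adjusted p = 0.0528), while it passed in edgeR's likelihood ratio test (adjusted p = 0.0122). The likelihood ratio test was run with a dispersion taken from a trend over all regions, without the spread of each region. The 200 bases after the start site, all of them coding exon, were at 38.2% and 40.0% in *Tet2+/+* and 69.7%, 72.1% and 65.7% in *Tet2-/-*. *Hormad1*, a protein of the chromosome axis, was methylated throughout, at 92.0% and 91.1% in *Tet2+/+* and 95.2%, 95.2% and 93.5% in *Tet2-/-*. *Majin*, which ties telomeres to the nuclear envelope, overlapped between groups at *Tet2+/+* and *Tet2-/-* means of 84.1% and 83.7%.

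*Spo11* was among the lowest of the 35, at 17.7% and 12.3% in *Tet2+/+* and 18.7%, 24.4% and 11.2% in *Tet2-/-*. The groups overlapped (edgeR adjusted p = 0.780). That window is poor in CpG (27 dyads) and surrounds the most upstream start of the gene. The start site with the most CpGs nearby, at position 172979842 of chromosome 2, was methylated instead, at 95.2% and 88.8% in *Tet2+/+* and 94.9%, 96.4% and 94.8% in *Tet2-/-* within 500 bp. The level given for the *Spo11* promoter thus holds for its most upstream start site only.

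Of the meiotic cohesins, ring proteins that hold sister chromatids together in meiosis, *Rec8* and *Stag3* were low in *Tet2+/+*, with all *Tet2-/-* libraries above. They did not pass the quasi-likelihood test, and passed edgeR's likelihood ratio test (adjusted p = 0.0102 for *Rec8* and 0.0147 for *Stag3*), which called 5.52% of all promoters. As run, the likelihood ratio test does not use each region's own spread between libraries. The promoter of *Rec8*, the meiotic kleisin (chromosome 14, 55617037 to 55619037, 50 dyads), was at 8.13% and 31.0% for libraries 23 and 24 (*Tet2+/+*) and at 39.6%, 38.1% and 60.0% for libraries 5, 7 and 8 (*Tet2-/-*). The groups did not overlap, but the *Tet2+/+* libraries differed from each other by almost as much as the groups (19.6% ± 16.2 (SD, n = 2) for *Tet2+/+* and 45.9% ± 12.2 (SD, n = 3) for *Tet2-/-*; edgeR adjusted p = 0.138). From 400 bases before to 399 after the start site, a segment with 317 bases of exon and no coding sequence, it was at 7.48% and 36.3% in *Tet2+/+* and 61.7%, 49.7% and 81.1% in *Tet2-/-*. From 600 to 999 bases after the start site, with 230 coding bases and 170 of intron, it was at 1.64% and 4.76% in *Tet2+/+* and 2.35%, 6.67% and 3.23% in *Tet2-/-*, close to 0 in both genotypes.

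The *Stag3* promoter (chromosome 5, 138279240 to 138281240, 104 dyads), which belongs to the meiotic partner of the cohesin ring, was at 18% and 6.03% for libraries 23 and 24 (*Tet2+/+*) and at 26.2%, 27.1% and 27.9% for libraries 5, 7 and 8 (*Tet2-/-*) (edgeR adjusted p = 0.106). Of its 600 upstream bases, 366 lie in *Gpc2* and 319 in *Gm43720*, which start 235 and 282 bp away on the other strand. The 600 bases were unmethylated in all libraries (1.79% and 1.06% in *Tet2+/+* and 1.51%, 0.866% and 2.31% in *Tet2-/-*). The 200 to 399 bases after the start site, all of them non-coding exon, were at 18.2% and 7.89% in *Tet2+/+* and 42.1%, 40.6% and 46.3% in *Tet2-/-*, and no *Tet2-/-* library overlapped with *Tet2+/+*. From 400 to 999, 585 of the 600 bases intron, the level was 84.6% and 12.0% in *Tet2+/+* and 88.0%, 95.2% and 95.7% in *Tet2-/-*, so that only library 24 was low there. *Smc1b*, a cohesin subunit, was at 66.5% and 67.0% in *Tet2+/+* and 63.4%, 58.9% and 73.9% in *Tet2-/-*, with overlapping groups. Of its 400 upstream bases, 287 lie in *Ribc2*, which starts 114 bp away, and it was at 49.5% and 49.6% in *Tet2+/+* and 50.4%, 44.8% and 58.3% in *Tet2-/-* over these 400 bases, against 87.9% and 85.6% in *Tet2+/+* and 75.3%, 85.2% and 84.0% in *Tet2-/-* in the first 600 bases of the gene.

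The piRNA pathway uses small RNAs bound by PIWI proteins to silence transposons in germ cells. In 7 of its 11 members all *Tet2-/-* libraries lay above both *Tet2+/+* libraries, and in none all lay below, where all lay above at 32.8% of all promoters. Within 500 bp all lay above in 6 of the 11, against 27.2% of all promoters. *Tdrd9*, the gene of a helicase of the pathway, passed the test. Its promoter (chromosome 12, 111970559 to 111972559, 38 dyads) was at 59.3% and 55.1% for libraries 23 and 24 (*Tet2+/+*) and at 92.8%, 93.2% and 87.5% for libraries 5, 7 and 8 (*Tet2-/-*). All 3 *Tet2-/-* libraries were close to each other and far above *Tet2+/+*. Group means were 57.2% ± 3.02 (SD, n = 2) for *Tet2+/+* and 91.2% ± 3.19 (SD, n = 3) for *Tet2-/-*, a difference of 34.0 points (edgeR adjusted p = 0.0132). Within 500 bp it was 36.2 points (edgeR adjusted p = 0.0296). *Tdrd9* did not pass within 500 bp when any *Tet2-/-* library was left out, nor in limma with library medians subtracted. Without *Tet2+/+* library 23 or 24 the edgeR adjusted p within 1 kb was 0.0732 and 0.272, and the difference was 36.1 and 31.9 points. The difference lay in the 400 bases before the start site and the first 200 bases of the gene, at 51.9% and 40.5% in *Tet2+/+* and 93.0%, 91.9% and 85.1% in *Tet2-/-*, where all 200 bases of the gene are exon and 117 of them coding. From 1000 to 1399 bases, in an intron, *Tet2+/+* library 23 alone was low (17.2% and 82.5% in *Tet2+/+* and 90.3%, 94.1% and 98.1% in *Tet2-/-*). Coverage around *Tdrd9* was 1.15 to 1.28 times that of all autosomal dyads.

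Other piRNA genes started from high levels. *Ddx4*, the germ cell helicase also known as Vasa, was at 94.1% and 94.9% in *Tet2+/+* and 92.6%, 96.7% and 97.0% in *Tet2-/-*. *Mael*, needed to make piRNAs, was at 94.1% and 92.2% in *Tet2+/+* and 91.9%, 93.3% and 83.4% in *Tet2-/-*, with *Tet2-/-* library 8 the lowest. In both the groups overlapped. *Piwil2*, a PIWI protein that cuts transposon RNA, was at 90.5% and 85.6% in *Tet2+/+* and 91.9%, 93.9% and 91.0% in *Tet2-/-*, with all *Tet2-/-* libraries slightly higher (edgeR adjusted p = 0.479).

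Other genes of the pathway lay lower in *Tet2+/+*. *Piwil4*, the nuclear PIWI protein of fetal male germ cells, was at 54.3% and 55.6% in *Tet2+/+* and 71.0%, 80.6% and 68.5% in *Tet2-/-* (edgeR adjusted p = 0.200). *Asz1*, on the mitochondrial surface where piRNAs are made, was at 81.3% and 75.9% in *Tet2+/+* and 91.5%, 92.8% and 86.9% in *Tet2-/-* (edgeR adjusted p = 0.143). *Tdrd12* was at 77.6% and 73.6% in *Tet2+/+* and 87.2%, 88.1% and 85.1% in *Tet2-/-* (edgeR adjusted p = 0.236). In these 3 the *Tet2-/-* libraries were all higher, without passing the test. Coverage around *Tdrd12* was 1.35 in *Tet2+/+* library 24 and 1.04 to 1.12 in the others, and its part in the result was not tested. *Tdrd1*, a scaffold of PIWI proteins, was at 88.9% and 68.0% in *Tet2+/+* and 78.3%, 89.8% and 75.8% in *Tet2-/-*, and its *Tet2+/+* libraries lay further apart than the groups. The helicase gene *Mov10l1* was at 78.5% and 70.9% in *Tet2+/+* and 79.7%, 92.3% and 77.0% in *Tet2-/-*, with overlapping groups. *Fkbp6*, a co-chaperone, and *Piwil1*, the PIWI protein of spermatocytes and spermatids, were all higher in *Tet2-/-*, by 9.32 points and 8.74 points, and did not pass (edgeR adjusted p = 0.239 and 0.378). Within 500 bp of the *Piwil1* start site (12 dyads) the groups overlapped. They overlapped too within 500 bp of its start site with the most CpGs nearby (42 dyads), at position 128736174 of chromosome 5. There the level was 80.3% and 75.0% in *Tet2+/+* and 83.0%, 82.3% and 75.8% in *Tet2-/-*.

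*Dazl*, an RNA-binding protein needed for germ cells to form, was lower in *Tet2-/-* within 1 kb, but its groups overlapped within 500 bp. Its promoter (chromosome 17, 50292636 to 50294636, 139 dyads) was at 63.5% and 61.4% for libraries 23 and 24 (*Tet2+/+*) and at 55.3%, 53.0% and 55.4% for libraries 5, 7 and 8 (*Tet2-/-*), with all *Tet2-/-* libraries below (edgeR adjusted p = 0.491). Within 500 bp, where the level was 95.7% and 92.8% in *Tet2+/+* and 95.4%, 96.2% and 87.6% in *Tet2-/-*, this order was gone. The wide window holds 2 blocks with a sharp edge. From 1000 bases before to 399 after the start site, with 230 bases of exon in the gene, the level was 95.9% and 92.2% in *Tet2+/+* and 94.4%, 96.4% and 87.7% in *Tet2-/-* (138 to 386 calls per library). From 600 to 1199 bases, 528 of the 600 bases intron, it was 0% and 1.15% in *Tet2+/+* and 1.61%, 1.98% and 3.64% in *Tet2-/-* (55 to 252 calls per library). In neither block did the groups differ by more than 1.84 points. The unmethylated block held 99 and 87 calls in *Tet2+/+* and 186, 252 and 55 in *Tet2-/-*. The methylated block held 270 and 166 calls in *Tet2+/+* and 303, 386 and 138 in *Tet2-/-*. The level of the wide window also depends on how calls split between the blocks, and the part of this was not tested. Another annotated start site of *Dazl*, at position 50292892 of chromosome 17, had the most CpGs nearby (74 dyads) and lies inside the block from 600 to 1199 bases. Within 500 bp of it the level was 16.9% and 24.5% in *Tet2+/+* and 20.6%, 20.2% and 16.4% in *Tet2-/-*, so that the high level of *Dazl* holds for the start of the gene record.

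*Ddx25*, a helicase of the testis, shared its start with *Pus3*, 67 bp away on the other strand, and had the lowest level of the 35. It was at 8.16% and 8.71% in *Tet2+/+* and 13.4%, 7.34% and 9.87% in *Tet2-/-*. From 1000 bases before to 599 after the start site it was at 2.82% and 5.07% in *Tet2+/+* and 7.88%, 3.52% and 1.41% in *Tet2-/-*. Beyond the window, from 1200 to 1599 bases, in an intron of *Ddx25*, the level was 23.1% and 11.4% in *Tet2+/+* and 80.6%, 97.0% and 57.9% in *Tet2-/-*, so that all *Tet2-/-* libraries were above both *Tet2+/+* libraries there (exact permutation p = 0.1, with 19 to 39 calls per library). The segment was picked after its values were seen. *Dnd1*, which guards the fate of primordial germ cells, was at 77.9% and 79.8% in *Tet2+/+* and 84.3%, 90.2% and 90.8% in *Tet2-/-* (edgeR adjusted p = 0.222).

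Of the regulators, the transcription factor *Sohlh2*, the testis bromodomain protein *Brdt* and *Stra8*, induced by retinoic acid at the entry into meiosis, had overlapping groups. *Stra8* was at 90% and 81.4% in *Tet2+/+* and 91.6%, 96.0% and 84.8% in *Tet2-/-*. *Dppa3*, which protects methylation of the maternal genome in the zygote, was at 77.3% and 76.4% in *Tet2+/+* and 87.0%, 92.0% and 83.1% in *Tet2-/-*, with all *Tet2-/-* libraries higher (edgeR adjusted p = 0.236). Of the last 4 members, *Stk31*, a tudor domain kinase, was at 92.9% and 93.3% in *Tet2+/+* and 93.8%, 94.6% and 92.0% in *Tet2-/-*. *Slc25a31*, the ADP/ATP carrier of germ cells, was at 92.8% and 91.0% in *Tet2+/+* and 93.3%, 95.7% and 90.7% in *Tet2-/-*. *Rpl10l*, an intronless copy of a ribosomal protein gene, was at 92.4% and 89.9% in *Tet2+/+* and 91.9%, 91.4% and 82.5% in *Tet2-/-*. In these 3 the groups overlapped. *Tex101*, a surface protein of sperm precursors, had groups that did not overlap, at 63.7% and 44.5% in *Tet2+/+* and 75.9%, 87.2% and 74.4% in *Tet2-/-* (edgeR adjusted p = 0.118, and 0.0300 in edgeR's likelihood ratio test). The start site with the most CpGs nearby, at position 24672050 of chromosome 7, was at 80.1% and 78.9% in *Tet2+/+* and 91.7%, 86.8% and 84.2% in *Tet2-/-* within 500 bp.

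**Figure D4:**
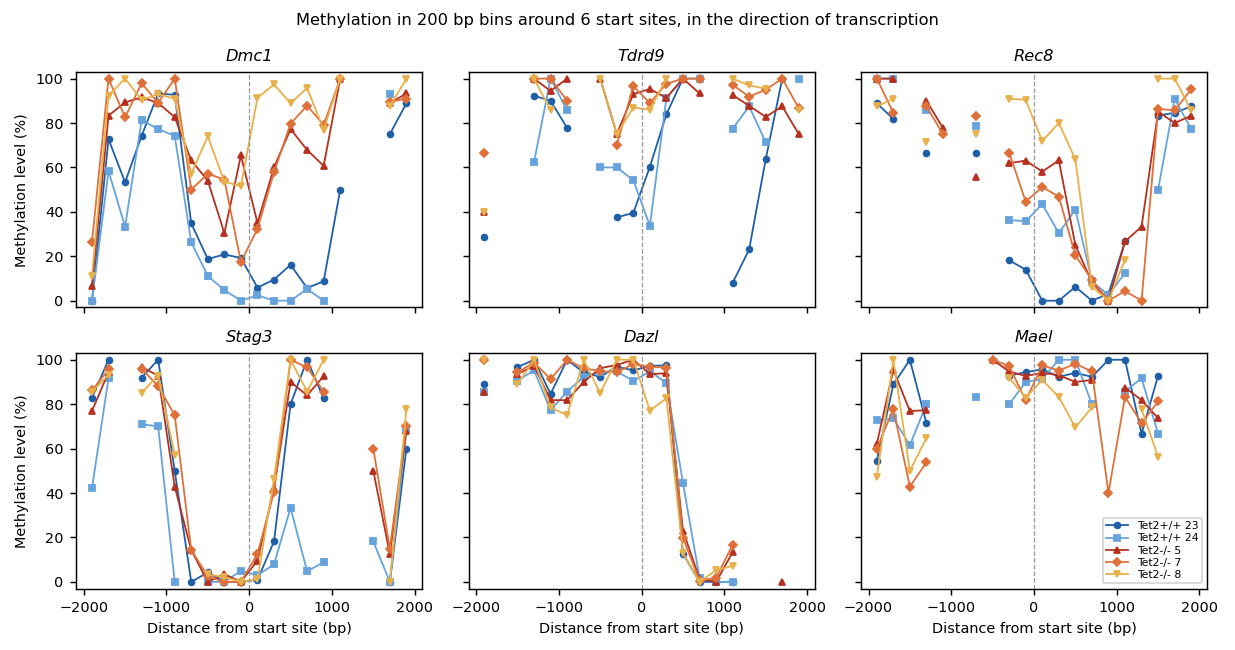
Methylation level (y axis, %) in 200 bp bins against distance from the start site (x axis, bp) at 6 germline promoters, with a line per library and bins of fewer than 5 calls left out. *Dmc1*, *Tdrd9* and *Rec8* show a block where the *Tet2+/+* libraries lay below the *Tet2-/-* libraries, *Stag3* a rise after the start site, *Dazl* a methylated block with a sharp end in all 5 libraries, and *Mael* a methylated promoter in all 5.

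More members passed over the gene body than at the promoter. The body runs from the start to the end of the gene record and so overlaps the promoter window after the start site. For *Dmc1* it holds 1000 bases of the block described above. Of the 35 bodies, 13 passed the test and all 13 were higher in *Tet2-/-* (37.1%), where 15.5% of all 20715 gene bodies were called higher. In 20 of the 35 (57.1%) all *Tet2-/-* libraries were above both *Tet2+/+* libraries, against 46.0% of all, and *Dazl* alone was the reverse. The body of *Dazl* holds the 600 bases of its unmethylated block. The median difference was 7.04 points for the members and 4.95 points for all, and 0.591 points for the members relative to each library's median body. The median level was 73.5% and 69.6% in *Tet2+/+* and 78.5%, 83.2% and 73.9% in *Tet2-/-*. The count of 13 depended on *Tet2+/+* library 24. Without it, when the lone *Tet2+/+* library is assumed to vary like the others, no body of the 35 passed in edgeR's test (11 at an unadjusted p under 0.05), and only 87 of all 20736 bodies passed (0.420%). Without *Tet2-/-* library 5, 6 members and 8.75% of all bodies passed. Limma called 0 of the 35 bodies, with 17 at an unadjusted p under 0.05, and 0.565% of all.

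By role, 6 of 11 genes of the piRNA pathway passed over the body, 3 of 5 of recombination and axis, 1 of 3 cohesins and 0 of 5 of the synaptonemal complex, where 15.5% of all bodies were called higher. The *Spo11* body (chromosome 2, 172977700 to 172993576, 243 dyads) was at 65.3% and 54.5% in *Tet2+/+* and 75.5%, 85.9% and 73.1% in *Tet2-/-*, a difference of 18.3 points (edgeR adjusted p = 0.000133). *Mei1* was at 63.1% and 57.4% in *Tet2+/+* and 75.0%, 80.5% and 74.4% in *Tet2-/-* (edgeR adjusted p = 0.000850), and *Dmc1* at 72.2% and 75.0% in *Tet2+/+* and 82.2%, 84.3% and 86.4% in *Tet2-/-* (edgeR adjusted p = 0.00261). In all 3, every *Tet2-/-* library was above both *Tet2+/+* libraries.

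Of the piRNA genes, *Ddx4* was at 78.5% and 74.5% in *Tet2+/+* and 84.9%, 91.1% and 83.9% in *Tet2-/-* (edgeR adjusted p = 0.00135), although its promoter was at over 90% in every library. *Tdrd1* was at 73.5% and 65.1% in *Tet2+/+* and 80.3%, 86.8% and 77.6% in *Tet2-/-* (edgeR adjusted p = 0.00162). *Mov10l1*, *Asz1*, *Tdrd12* and *Piwil4* also rose, by 12.5 points, 10.8 points, 11.0 points and 8.16 points (edgeR adjusted p = 0.00832, 0.0129, 0.0214 and 0.0469). *Tdrd9*, whose promoter passed, did not pass over its body (8.52 points, edgeR adjusted p = 0.0654).

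*Stra8* was at 74.4% and 69.0% in *Tet2+/+* and 81.9%, 87.5% and 80.05% in *Tet2-/-* (edgeR adjusted p = 0.00283), *Ddx25* at 60.6% and 54.7% in *Tet2+/+* and 70.1%, 72.1% and 67.1% in *Tet2-/-* (edgeR adjusted p = 0.0154) and *Tex101* at 73.0% and 73.4% in *Tet2+/+* and 85.5%, 88.5% and 77.7% in *Tet2-/-* (edgeR adjusted p = 0.0172). The body of *Stag3* rose by 10.2 points (edgeR adjusted p = 0.0460). The other 22 members did not pass, and their differences ran from -6.09 points (*Dazl*) to 11.5 points (*Rec8*).

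**Figure D5:**
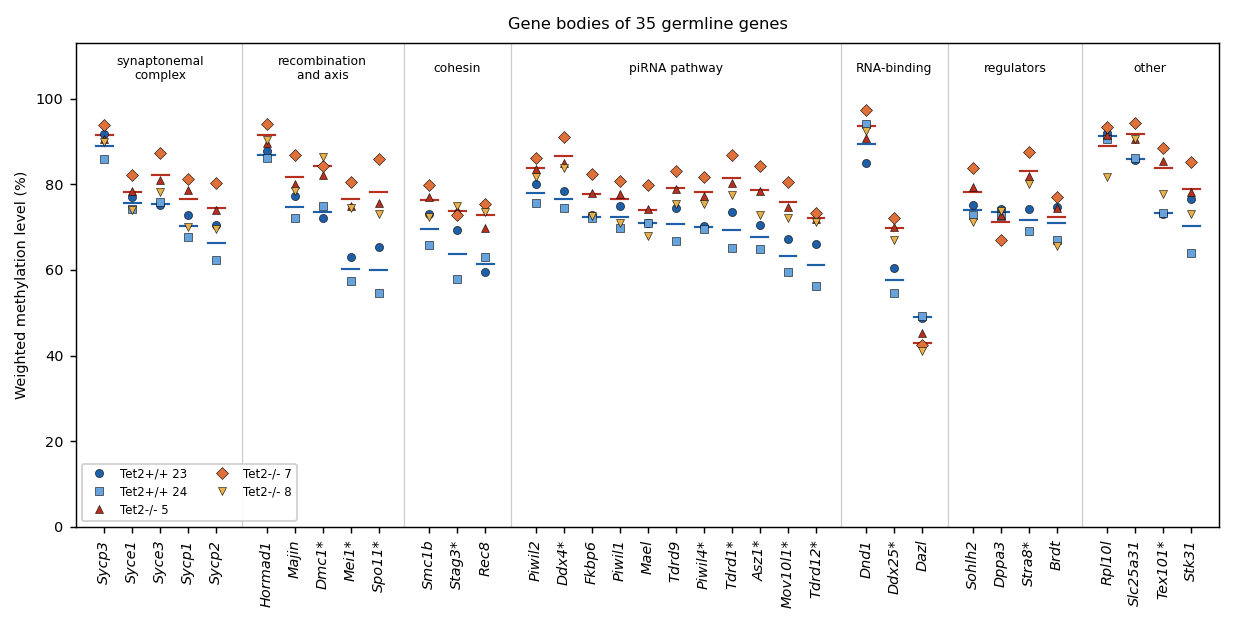
Methylation level (y axis, %) over the bodies of the 35 germline genes, grouped by role and ordered by *Tet2+/+* mean, with points for libraries, short lines for group means (blue *Tet2+/+*, red *Tet2-/-*) and an asterisk for an edgeR adjusted p under 0.05. The 13 bodies that passed were all higher in *Tet2-/-*.

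Coverage set the 5 members on chromosome 15 (*Dmc1*, *Mei1*, *Mov10l1*, *Smc1b* and *Syce3*) apart. Calls per dyad on chromosome 15, relative to all autosomal dyads, were 1.25 and 1.07 in *Tet2+/+* and 1.42, 1.39 and 1.43 in *Tet2-/-*. Within 500 kb of *Dmc1* they were 1.38 and 1.22 in *Tet2+/+* and 1.70, 1.75 and 1.69 in *Tet2-/-*. This coverage followed the genotype, and its part in the results of these 5 members cannot be told apart from that of *Tet2*. Of all promoters on chromosome 15, 12 of 779 (1.54%) were called higher, and of the promoters elsewhere 194 of 18676 (1.04%). Of all bodies on chromosome 15, 151 of 782 (19.3%) were called higher, and of the bodies elsewhere 3051 of 19933 (15.3%). Without the 5 members, an alternative added after the data were seen, 1 of 30 promoters within 1 kb (*Tdrd9*) and 10 of 30 bodies were called. The median differences were then 3.46 points for promoters and 6.74 points for bodies, against 2.19 and 4.93 points over all regions elsewhere.

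As a comparison, 60 further germline genes were listed, of which 59 were in the annotation and 57 could be tested at the promoter. They were less methylated, with a median *Tet2+/+* level of 57.6%. A mean level of at least 80% over the 5 libraries was found at 12 of the 57 (21.1%). *Nanos2*, which keeps male germ cells out of meiosis, and *Zp3*, a protein of the egg coat, passed, where 1.06% of all promoters were called higher. *Nanos2* was at 55.2% and 38.3% in *Tet2+/+* and 81.3%, 84.5% and 79.2% in *Tet2-/-* (edgeR adjusted p = 0.0362). *Zp3* was at 50% and 50.7% in *Tet2+/+* and 79.9%, 88.1% and 79.4% in *Tet2-/-* (edgeR adjusted p = 0.0348). In 25 of the 57 (43.9%) all *Tet2-/-* libraries were above both *Tet2+/+* libraries, against 32.8% of all promoters, and the median difference was 5.35 points. Within 500 bp none of 57 passed in edgeR's test, *Nanos2* and *Zp3* included (12 at an unadjusted p under 0.05). Over gene bodies, 13 of 59 passed, all higher, where 15.5% of all bodies were called higher. Genes that silence the germline program, which include *E2f6*, *Mga*, *Pcgf6*, *Dnmt3a* and *Dnmt3b*, were mostly unmethylated at the promoter. Of 25 tested promoters of 26 such genes in the annotation, none passed in edgeR's test (0 at an unadjusted p under 0.05), and their median level was 4.64% in *Tet2+/+* and 5.29% in *Tet2-/-*. None of their 26 bodies passed (0 at an unadjusted p under 0.05).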

How the data were processed

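Per the labels and the study's methods, the authors trimmed reads with Trim Galore (0.4.3), aligned them with Bismark (0.19.1, non-directional) to GRCm38, removed duplicates and deposited, for each cytosine of a CpG, counts of methylated and of unmethylated calls. Here these counts were summed over both strands and per region of GENCODE M21 genes, with a minimum of 20 calls in every library. Methylated and unmethylated counts were tested with edgeR (4.0.16, R 4.3.3), adjusted by Benjamini-Hochberg over all regions of a kind at 0.05, after a test on simulated data. Single segments were given exact permutation tests (two-sided). Alternatives were other call minimums (10 and 50), the likelihood ratio test, limma (3.58.1) on log2 ratios with a pseudocount of 2 with and without library medians subtracted, thinning, dyads called in all libraries, another start site and leaving out each library. Values in every library are given for members called, the 5 at each end of difference and level, and a fixed list. Members and lists were chosen with earlier results of these data known. Segments and the omission of chromosome 15 were chosen after the data were seen. Depth of 2.96 to 5.19 calls per dyad limits the precision of each level. Sequences came from the GRCm38 assembly.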

Additional observations from a re-analysis of the deposited data

How the results depend on the processing

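No paired analysis was possible because each library came from a different mouse and the labels name no pairs across the groups. The counts of members called depended on the libraries and on the test. Leaving out a library in turn gave 0 to 2 called promoters within 1 kb (2 with all libraries), 0 to 1 within 500 bp (2) and 0 to 17 bodies (13). Without either *Tet2+/+* library no member promoter was called, but then 1 *Tet2+/+* library is left, assumed to vary like the others, and 21 (without library 23) and 0 (without library 24) of all promoters passed within 1 kb. Within 500 bp 0 were called without *Tet2-/-* library 8 also (11 at an unadjusted p under 0.05, edgeR, and no other tool was run without it). With a *Tet2-/-* library left out, 0.420% to 1.53% of all promoters were called within 1 kb and 0.109% to 0.972% within 500 bp. Of all bodies, 8.75% to 16.1% were then called. With any 1 library left out, the median difference ranged from 2.61 to 6.63 points within 1 kb, from 1.79 to 5.89 points within 500 bp and from 4.66 to 9.53 points over bodies. The members whose groups did not overlap in either direction then numbered 18 to 25, 15 to 22 and 21 to 30. Leaving out a library can only keep or raise that number. No share over all regions is at hand beside these counts, so that they are no result about the members. With all libraries, *Tet2-/-* lay above in 16, 14 and 20 members, against 32.8%, 27.2% and 46.0% of all regions, and below in 1, 0 and 1. The likelihood ratio test called 6 promoters within 1 kb and 5.52% of all. Limma called 0 bodies and 0.565% of all. With library medians subtracted limma called 0 promoters within 1 kb (7 at an unadjusted p under 0.05), 1 within 500 bp and 0 bodies (7). Of all regions of these kinds it then called only 0.0463%, 0.337% and 0.00483%. With library medians subtracted the median difference was -0.502 points within 1 kb and 0.591 points over bodies. The medians subtracted within 1 kb were 12.0% to 18.8%, far below the level of most members. Without the members on chromosome 15, 1 promoter was called within 1 kb and 1 within 500 bp. Of all promoters not on chromosome 15, 1.04% and 0.577% were called higher. The cause was not tested.

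The other 8 members were not followed through every alternative. Among the 27 members named by the rule, small differences that did not pass changed sign. With library medians subtracted they were -2.56 (*Ddx25*), -3.37 (*Ddx4*), -1.24 (*Hormad1*), -0.146 (*Piwil2*), -3.01 (*Slc25a31*), -1.21 (*Spo11*), -3.97 (*Stk31*), -0.502 (*Sycp1*), -3.30 (*Sycp3*) and -1.47 points (*Tdrd1*). Within 500 bp they were -0.294 (*Ddx25*), -0.656 (*Ddx4*), -0.338 (*Stk31*), -0.422 (*Sycp3*) and -0.664 points (*Tdrd1*). After thinning to the shallowest library they were -0.496 (*Ddx4*), -0.144 (*Stk31*) and -0.0263 points (*Sycp3*). Over dyads called in all 5 libraries they were 0.676 (*Smc1b*) and -0.717 points (*Sycp3*), and at the start site with the most dyads -0.415 points (*Sycp3*). Leaving out a library in turn gave -4.24 to 0.473 (*Rpl10l*), -5.61 to 1.89 (*Smc1b*), -0.0543 to 6.57 (*Spo11*), -0.222 to 1.09 (*Stk31*), -2.37 to 0.0391 (*Syce1*), -1.23 to 3.27 (*Sycp3*) and -7.61 to 13.3 (*Tdrd1*) points. *Dmc1* and *Tdrd9* kept their direction under every alternative run, and limma with library medians subtracted gave them adjusted p = 0.0968 and 0.109. The depth of 2.96 calls per dyad in the shallowest library limits what can be said of single CpGs.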
